A study of Mus musculus with 11 samples.

Results

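The G1 cyclins and CDK inhibitors are the proteins that set when a cell leaves G1 and starts to copy its DNA, and the transcripts of 10 of them were followed here among the 28284 genes counted. The members were listed by name, with earlier results of these data known, and no threshold on their values was used: the D cyclins Ccnd1, Ccnd2, and Ccnd3, the E cyclins Ccne1 and Ccne2, the INK4 inhibitors Cdkn2a, Cdkn2b, and Cdkn2c, and the Cip/Kip inhibitors Cdkn1b and Cdkn1c. All 10 were in the count table, and all 10 passed the filter on low counts in both comparisons. Bulk RNA sequencing was performed on 11 cell lines from 7 OvTrpMyc mice, with 1 library per line. The lines came from 7 ovaries, 2 uteruses, 1 splenic tumor (F326), and 1 peritoneal tumor (F361), and the names give the mouse and the site, where ROV and LOV are the right and left ovary. The line titled F361 peritoneal tumor, the only line of its mouse, is called F361. Every line had the genotype Ovgp1-Trp53-R270H-Myc, in which the oviduct promoter Ovgp1 drives mutant p53-R270H and MYC from the Trp53 locus, and none received a treatment. There was no wild-type line, so no level can be read against normal tissue, and the age of the mouse behind each line is not given in the sources used here. By the study's methods, dissected tissue was minced and passaged in RPMI medium until a line was established, PCR showed the mutant and no wild-type Trp53 band in the lines, and the F361 line had no mutant p53 transcript. No cloning step is described for the lines.

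D cyclins bind CDK4 and CDK6 and E cyclins bind CDK2, and these kinases phosphorylate the retinoblastoma proteins, which then release E2F factors to transcribe the genes of S phase. INK4 proteins block CDK4 and CDK6, whereas Cip/Kip proteins act mainly on cyclin E-CDK2. In high-grade serous ovarian cancer, CCNE1 is a known amplified oncogene, and the CDKN2A product p16 is often abundant where the retinoblastoma pathway is disabled.

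The libraries are numbered S1 to S11 in the labels, and those numbered S1 to S7 stood apart from those numbered S8 to S11. What the numbers stand for is not given in the sources used here. Libraries S1 to S7 are F364 ROV, F326 splenic tumor, F364 LOV, F326 ROV, F361, F319 ROV, and F318 ROV, and libraries S8 to S11 are the ovary lines F339 ROV and F318 LOV and the uterus lines of F319 and F333. The boundary was placed between S7 and S8 because earlier results of these data showed skeletal muscle RNA in the first set, so the sets were not drawn by the members' values. Skeletal muscle fiber genes (38 of 39 in the table) held 7.92 to 14.9% of the counts in S1 to S7 and 0.163 to 1.28% in S8 to S11. The 4 Y-linked genes summed to 128 to 174 CPM (counts per 1000000 counts of the library) in S1 to S7 and to 1.75 to 19.2 CPM in S8 to S11, although 5 of the 7 lines in S1 to S7 are labelled as ovary. Macrophage and leukocyte markers summed to 44.4 to 109 CPM against 8.47 to 18.6 CPM, with 6 of 8 lower in S8 to S11 and Ptprc, Adgre1, and Itgam at 0 in at least 1 library. Endothelial markers summed to 93.5 to 365 CPM against 2.88 to 227 CPM (5 of 7 lower, Emcn at 0 in a library), and adipocyte markers to 151 to 323 CPM against 2.49 to 36.8 CPM (4 of 4 tested lower, Adipoq, Plin1, and Lep at 0 in a library). Mesenchymal markers summed to 967 to 12704 CPM against 14153 to 23507 CPM, with 4 of 8 higher and 2 lower. The labels give the cell type of all 11 lines as ovarian cancer. Epithelial markers summed to 3.16 to 164 CPM in S1 to S7 and 9.998 to 43.4 CPM in S8 to S11, and Epcam, Cdh1, Krt7, Krt8, Pax8, and Muc16 were at 0 in at least 1 library. Both uterus libraries lie in S8 to S11 and both tumor libraries in S1 to S7, so the library set and the origin of a line are in part the same split.

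The inhibitor locus on chromosome 4 carries Cdkn2a (chr4:89274471-89294653, minus strand) and Cdkn2b (chr4:89306299-89311039, minus strand) next to each other in GRCm38. Cdkn2a has a pair of promoters, a distal one for p19Arf, which stabilizes p53 by binding MDM2, and a proximal one inside its first intron for p16Ink4a. The gene count merges both transcripts, so p16Ink4a and p19Arf cannot be told apart in these data. The promoters of the locus are shown because Cdkn2a and Cdkn2b varied together over the lines, as described below. Each stretch is given 5′ to 3′ on the minus strand, from RefSeq on GRCm38.p6. It ends just before the start that GENCODE M21 gives the gene, which lies upstream of the RefSeq start for distal Cdkn2a and for Cdkn2b, or before the RefSeq start for proximal Cdkn2a. The E2F-type motif TTTCCCGC is in capitals.
Cdkn2a distal (p19Arf), chr4:89294654-89294869, 216 bases: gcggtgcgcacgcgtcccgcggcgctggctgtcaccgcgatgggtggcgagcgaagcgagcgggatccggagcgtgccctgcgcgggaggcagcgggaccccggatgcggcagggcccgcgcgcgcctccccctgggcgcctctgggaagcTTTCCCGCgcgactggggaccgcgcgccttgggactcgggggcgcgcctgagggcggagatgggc
Cdkn2a proximal (p16Ink4a), chr4:89282193-89282442, 250 bases: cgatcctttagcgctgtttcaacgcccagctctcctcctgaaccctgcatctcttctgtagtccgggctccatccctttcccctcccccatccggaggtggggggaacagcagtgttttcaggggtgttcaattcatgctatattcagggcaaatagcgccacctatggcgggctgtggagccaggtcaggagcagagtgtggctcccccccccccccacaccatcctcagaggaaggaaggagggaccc
Cdkn2b, chr4:89311040-89311282, 243 bases: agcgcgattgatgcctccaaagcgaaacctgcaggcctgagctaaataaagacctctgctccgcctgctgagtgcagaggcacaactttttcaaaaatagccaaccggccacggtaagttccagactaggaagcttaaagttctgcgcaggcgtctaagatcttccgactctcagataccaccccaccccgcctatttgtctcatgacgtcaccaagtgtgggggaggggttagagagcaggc
The distal Cdkn2a promoter is the richest in G and C, at 78.7% of its bases, against 60.0% in the proximal promoter and 53.5% in Cdkn2b. Its match to TTTCCCGC begins 65 bases before the end of the stretch shown and 99 bases before the RefSeq start. Of the 10 members, 6 had promoter entries in the table used, 9 entries in all. The motifs TTTCCCGC, TTTGGCGC (another E2F-type sequence), and CACGTG (an E-box, the sequence MYC binds) do not overlap each other and were searched on both strands in the 250 bases upstream of each start. Among all 32851 promoters, TTTCCCGC was present in 0.895%, TTTGGCGC in 0.417%, and CACGTG in 6.02%. Among the 9 member promoters, TTTCCCGC was found once, in distal Cdkn2a, and neither of the others was found.

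The level of all 10 members by line is shown first. Each line is a single library, so its Wilson interval at 95% confidence covers counting error only.

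**Figure D1:**
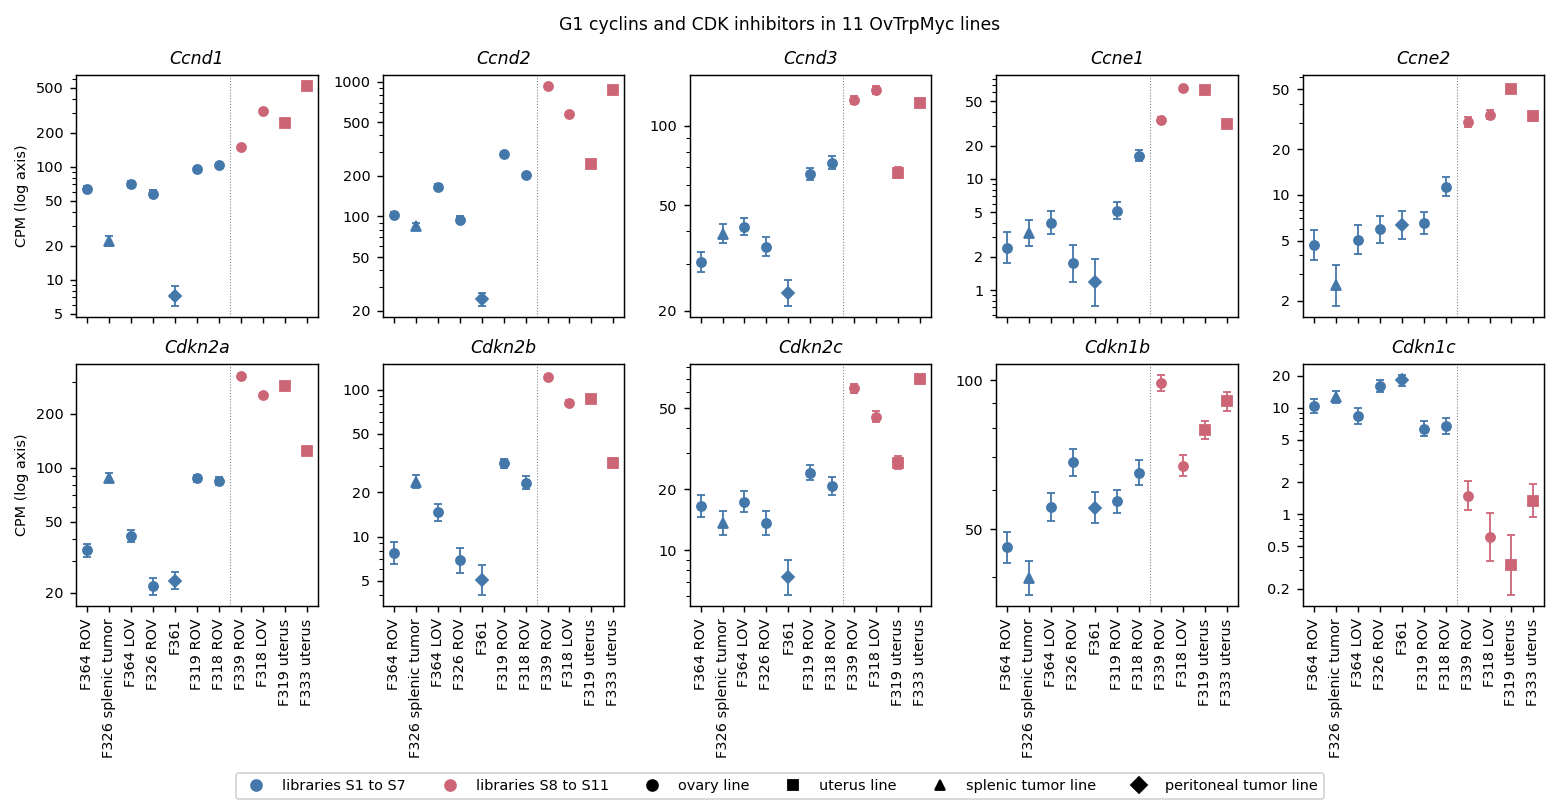
Level of each member (CPM, log axis) in the 11 OvTrpMyc lines in the order of their library numbers, with 1 point per library, bars for the 95% Wilson interval of its count, color for the library set, and shape for the origin of the line. The dotted line separates S1 to S7 from S8 to S11; 6 members lie wholly higher and Cdkn1c lies wholly lower on its right side, against 26.1% and 17.1% of all genes, and 4 members and Cdkn1c after TMM normalization, against 19.0% and 22.0%.

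D cyclins couple growth signals to CDK4 and CDK6. Ccnd1 (cyclin D1, chr7:144929931-144939925) ranged from 7.22 to 103 CPM in S1 to S7, with a median of 64.2 CPM. In S8 to S11 it was at 150 CPM in F339 ROV, 314 CPM in F318 LOV, 244 CPM in F319 uterus, and 515 CPM in F333 uterus. F361 was lowest, the F326 splenic tumor line next, and the sets did not overlap. Ccnd2 (cyclin D2, chr6:127125162-127152193), a D cyclin that ovarian granulosa cells use, ranged from 24.3 to 292 CPM in S1 to S7, with a median of 103 CPM. It was at 925 CPM in F339 ROV, 571 CPM in F318 LOV, 245 CPM in F319 uterus, and 867 CPM in F333 uterus. The sets overlapped for Ccnd2, because F319 uterus lay below F319 ROV. Ccnd3 (cyclin D3, chr17:47505051-47599691) ranged from 23.3 to 72.7 CPM in S1 to S7, with a median of 39.2 CPM. It was at 122 CPM in F333 uterus, 66.5 CPM in F319 uterus, 137 CPM in F318 LOV, and 125 CPM in F339 ROV. The sets overlapped here too, with F319 uterus between F319 ROV and F318 ROV. F361 was the lowest line for each of the 3 D cyclins.

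E cyclins switch on CDK2 at the start of S phase. Ccne1 (cyclin E1, chr7:38097984-38107534) had the lowest median of the members per kilobase of exon in S1 to S7. Ccne2 was lower in 4 of those 7 lines, though only narrowly in F364 LOV and F319 ROV. In S1 to S7 Ccne1 ranged from 1.18 CPM in F361 to 16.2 CPM in F318 ROV, with a median of 3.29 CPM. It was at 33.8 CPM in F339 ROV, 65.9 CPM in F318 LOV, 63.4 CPM in F319 uterus, and 31.5 CPM in F333 uterus. The sets did not overlap, and F318 ROV lay apart from the other 6 libraries of its set, with the next highest, F319 ROV, at 5.19 CPM. Of the 10 neighboring pairs in the order of the 11 levels, 7 had overlapping intervals, so the low end of that order is not resolved by these counts. Ccne2 (cyclin E2, chr4:11191351-11204779) ranged from 2.53 CPM in the F326 splenic tumor line to 11.4 CPM in F318 ROV within S1 to S7, with a median of 5.94 CPM. It was at 30.3 CPM in F339 ROV, 33.8 CPM in F318 LOV, 50.03 CPM in F319 uterus, and 33.0 CPM in F333 uterus. Ccne2 did not overlap between the sets, and in S8 to S11 it was the most even member but 1, with an SD of 0.30 on the log2 scale of normalized CPM against 0.28 for Cdkn1b.

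INK4 inhibitors hold CDK4 and CDK6 inactive, and p16Ink4a and p15Ink4b are known to accumulate in aging cultures. Within S1 to S7, Cdkn2a was lowest in F326 ROV, at 21.8 CPM, and highest in the F326 splenic tumor line, at 88.03 CPM, with a median of 41.6 CPM. It was at 323 CPM in F339 ROV, 253 CPM in F318 LOV, 284 CPM in F319 uterus, and 124 CPM in F333 uterus. The sets did not overlap, and F333 uterus was the lowest of S8 to S11 for both Cdkn2a and Cdkn2b. Cdkn2b, which encodes p15Ink4b, ranged from 5.08 to 31.4 CPM in S1 to S7, with a median of 14.6 CPM. It was at 31.7 CPM in F333 uterus, 87.0 CPM in F319 uterus, 81.2 CPM in F318 LOV, and 122 CPM in F339 ROV. F333 uterus and F319 ROV had overlapping intervals, and on the scale normalized by TMM (trimmed mean of M-values, which adjusts the library sizes) the sets overlapped for Cdkn2b. Cdkn2c, which encodes p18Ink4c (chr4:109660876-109667189), ranged from 7.36 CPM in F361 to 24.2 CPM in F319 ROV within S1 to S7, with a median of 16.6 CPM. It was at 69.6 CPM in F333 uterus, 27.0 CPM in F319 uterus, 45.4 CPM in F318 LOV, and 62.9 CPM in F339 ROV. F319 ROV and F319 uterus, from the same mouse, had overlapping intervals for Cdkn2c, and the sets overlapped after TMM normalization.

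Cip/Kip inhibitors bind whole cyclin-CDK complexes. Cdkn1b, which encodes p27Kip1 (chr6:134920401-134925513), ranged from 39.9 CPM in the F326 splenic tumor line to 68.2 CPM in F326 ROV within S1 to S7, with a median of 55.5 CPM. It was at 98.7 CPM in F339 ROV, 67.3 CPM in F318 LOV, 79.4 CPM in F319 uterus, and 90.7 CPM in F333 uterus. The sets overlapped, and Cdkn1b was the steadiest member: its SD over the 11 lines was 0.27 on the log2 scale of normalized CPM, and only 3.28% of all 15954 genes tested had a smaller SD. Cdkn1c, which encodes p57Kip2 (chr7:143458339-143461050) and is an imprinted gene, ranged from 6.36 CPM in F319 ROV to 18.1 CPM in F361 within S1 to S7, with a median of 10.3 CPM. It was at 1.49 CPM in F339 ROV, 0.611 CPM in F318 LOV, 0.333 CPM in F319 uterus, and 1.35 CPM in F333 uterus. The sets did not overlap, and the direction was opposite to that of the other members whose sets did not overlap. The lowest value, in F319 uterus, rested on 9 counts (95% Wilson interval 0.175 to 0.633 CPM), above the 3 counts that were set as the limit of detection. With an SD of 2.08, Cdkn1c was the most variable member, and 91.7% of all genes had a smaller SD. The median SD over all genes was 0.81.

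Some lines recurred at the ends of the order. F361 had the lowest normalized level of 6 of 10 members (Ccnd1, Ccnd2, Ccnd3, Ccne1, Cdkn2b, and Cdkn2c) and the highest of Cdkn1c, whereas 17.3% of all genes had their lowest normalized level in F361 and 16.8% their highest. F333 uterus had the highest normalized level of 4 members (Ccnd1, Ccnd2, Cdkn2c, and Cdkn1b), against 12.3% of all genes. F339 ROV was highest for Cdkn2a and Cdkn2b, against 8.66% of all genes, and F318 LOV for Ccnd3 and Ccne1, against 12.3%. F361 is 1 library, and no test was made for it.

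Levels of different genes were compared per kilobase of exon (union of the annotated exons). Cdkn2a had the highest median of the 10 members over the 11 lines, 74.2 CPM per kilobase, followed by Ccnd2 at 21.8 and Ccnd1 at 20.5 CPM per kilobase. Ccne2 and Ccne1 were lowest by this median, at 1.87 and 1.95 CPM per kilobase. The order below Cdkn2a differed between the sets. In S1 to S7, Ccnd1 came next at 13.6 CPM per kilobase, then Cdkn1b at 12.2 and Ccnd2 at 10.99, and Ccne1 was lowest at 1.24. In S8 to S11, Ccnd2 came next at 76.4 CPM per kilobase, then Cdkn2b at 60.5 and Ccnd1 at 59.2, Ccne1 was at 18.3, and Cdkn1c was lowest at 0.480. Cdkn2a, counted over both of its transcripts, had the largest share of the inhibitor total in 11 of 11 lines, from 36.1% in F326 ROV to 72.9% in F319 uterus. Among the D cyclins, Ccnd1 and Ccnd2 had median shares of 42.2% and 42.5%, and Ccnd3 had 12.7%. With the longest transcript as the length these were 35.1%, 43.0%, and 19.1%. The 2 major D cyclins took turns: Ccnd1 was largest in 6 lines and Ccnd2 in 4, but in 4 and 6 lines with that length. F339 ROV leaned furthest to Ccnd2, with 68.0% of the D cyclin total, and F319 uterus furthest to Ccnd1, with 60.6%. In F361, where Ccnd1 was at 98 counts, Ccnd3 was the largest D cyclin at 39.3%, nearly tied with Ccnd2 at 38.1%. With the longest transcript as the length, Ccnd3 was at 51.2% and Ccnd2 at 32.5% in F361. Ccne1 made up 55.6% of the E cyclin total at the median, from 19.6% in F361 to 71.9% in F318 LOV. Ccne1 was the larger E cyclin in all 4 lines of S8 to S11 and in 4 of 7 lines of S1 to S7. In S1 to S7 this was a near tie in F364 LOV (51.2%, 64 Ccne1 counts) and F319 ROV (51.1%, 116 Ccne1 counts).

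**Figure D2:**
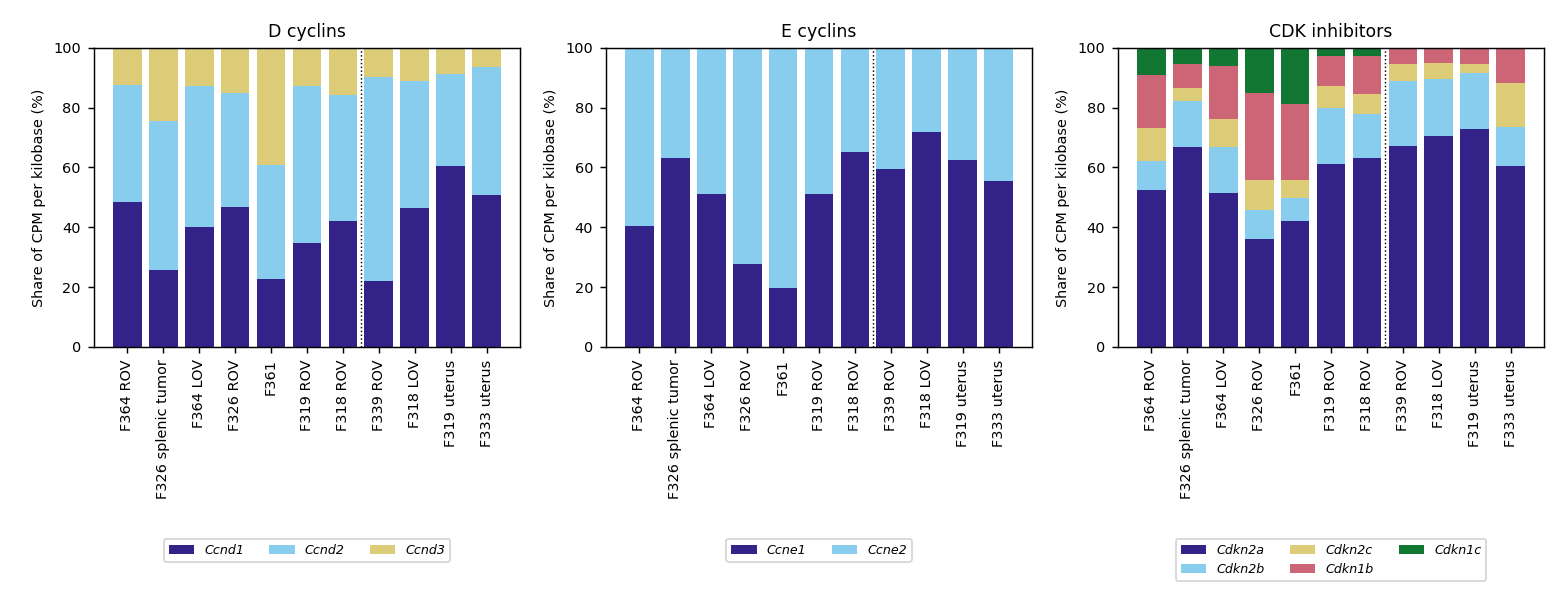
Share of each gene in the total CPM per kilobase of the D cyclins, of the E cyclins, and of the 5 CDK inhibitors (%, stacked to 100) in each of the 11 lines, with a dotted line between S1 to S7 and S8 to S11. Cdkn2a is the largest inhibitor share in every line, and F361 has the largest Ccnd3 share (39.3%) and the smallest Ccne1 share (19.6%).

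Ratios of raw counts within a library do not depend on its normalization. Cdkn2a over Cdkn2b stayed between 2.64 in F339 ROV and 4.61 in F361, a 1.74-fold range, whereas Cdkn2a itself ranged 14.8-fold and Cdkn2b 24.0-fold in CPM. Ccne1 over Ccne2 ranged more widely, from 0.186 in F361 to 1.95 in F318 LOV. Ccnd1 over Ccnd2 ranged from 0.163 in F339 ROV to 0.995 in F319 uterus. Ccne1 over Cdkn1b, an activator of CDK2 over one of its inhibitors, was 0.0213 to 0.248 in S1 to S7 and 0.342 to 0.979 in S8 to S11, without overlap. Of these ratios, that of the adjacent inhibitor genes had the narrowest range.

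The genes with the pattern most like that of Cdkn2a and Ccne1 over the 11 lines were ranked by Pearson's r of log2 normalized CPM, as a description, since the lines share mice and library sets. Cdkn2b ranked first for Cdkn2a over the 11 lines (r = 0.98), followed by Pcdh18 (0.97) and B3glct (0.96). Over the 7 lines of S1 to S7, Pcdh18 (0.978) and B3glct (0.965) were closer to Cdkn2a than Cdkn2b was (0.955). For Ccne1 the first were Ncs1, Fubp1, and Dync1i2 (0.99 each). Ccne2 ranked 1764 for Ccne1, with r = 0.88 over 11 lines and 0.31 over S1 to S7.

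The library sets were compared across all genes to place the members against the split by library number. In S8 to S11, 8 of 10 members were higher and Cdkn1c was lower than in S1 to S7 (edgeR's quasi-likelihood test, Benjamini-Hochberg adjusted p under 0.05). This split called 58.5% of the 15954 genes tested, 28.6% higher and 29.9% lower, so a call is common among all genes. DESeq2 called the same 9 members (61.8% of all genes), as did the fit to the 7 ovary lines alone (40.7%), and a fit with tissue as a term called 8 (36.9%). The median log2 fold change was 1.88 over the 10 members and 0.03 over all genes. Without TMM, on library totals, the median of all genes moved to 0.40, 62% of the called genes were higher against 48.9% with TMM, and all 10 members were called, against 61.5% of all genes. In CPM, the sets did not overlap for 7 members, 6 higher and 1 lower in S8 to S11, against 43.1% of all genes (26.1% higher and 17.1% lower). After TMM normalization they did not overlap for 5 members (Ccnd1, Ccne1, Ccne2, Cdkn2a, and Cdkn1c), 4 higher and 1 lower, against 41.0% of all genes (19.0% higher and 22.0% lower). These p-values measure the spread between lines, several of which come from the same mouse and are not independent. With mouse as a block, an alternative chosen after seeing the data, 3 members were called (Ccne1, Ccne2, and Cdkn1c) and 15.0% of 18554 genes, 4.27% higher and 10.7% lower. Of the genes called in it, 28.5% were higher, against 48.9% without the block. That fit has 3 residual degrees of freedom, and the set difference in it comes from F318 and F319, the mice with a line in each set. In bulk samples, fewer cells of a type and less RNA per cell cannot be told apart.

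Of the members, Ccne1 had the largest increase, a log2 fold change of 3.03 (SE 0.54, adjusted p = 0.000668 by edgeR's quasi-likelihood test), an 8.16-fold difference. Without F318 ROV, the library of S1 to S7 with the most Ccne1, it was 3.61, and with mouse as a block 2.60 (adjusted p = 0.0283). Ccne2 rose by 2.26 (SE 0.29, edgeR adjusted p = 0.000106), the smallest adjusted p of the members, and by 2.04 with mouse as a block (adjusted p = 0.0466). Ccnd1 was higher by 2.06 (SE 0.54, edgeR adjusted p = 0.00632), but by 1.23 among the 7 ovary lines alone (adjusted p = 0.0162) and by 1.24 with tissue as a term, where it was no longer called (adjusted p = 0.0523). With mouse as a block Ccnd1 was at 1.26 and not called (edgeR adjusted p = 0.11). Ccnd2 was higher by 1.93 (SE 0.51, edgeR adjusted p = 0.00624) and Ccnd3 by 1.03 (SE 0.27, edgeR adjusted p = 0.0068). With mouse as a block these were at 0.41 and 0.26 and not called (adjusted p = 0.622 and 0.656). Without the block all 5 cyclins were higher in S8 to S11, and with it the calls were those of the E cyclins. The difference between the cyclin classes was not tested.

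Of the INK4 inhibitors, Cdkn2b was higher by 1.96 (SE 0.46, edgeR adjusted p = 0.00328), Cdkn2a by 1.82 (SE 0.39, adjusted p = 0.00196), and Cdkn2c by 1.33 (SE 0.30, adjusted p = 0.00278). All 3 passed under every alternative tried but the mouse block, with which Cdkn2b was at 1.43, Cdkn2a at 1.44, and Cdkn2c at 0.43 (adjusted p = 0.161, 0.153, and 0.454). Cdkn1b had a log2 fold change of 0.24 (95% interval -0.15 to 0.63, edgeR adjusted p = 0.264), and on library totals it was 0.60 (adjusted p = 0.0136). Cdkn1c fell by 3.95 on the log2 scale (SE 0.56, edgeR adjusted p = 0.000181), and with mouse as a block it was at -4.03 (adjusted p = 0.00521). The muscle fiber, Y-linked, leukocyte, and adipocyte sums given above were lower in S8 to S11 as well, and their part in these differences was not tested. With the muscle and Y-linked genes left out of the library sizes, the same 9 members were called.

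**Figure D3:**
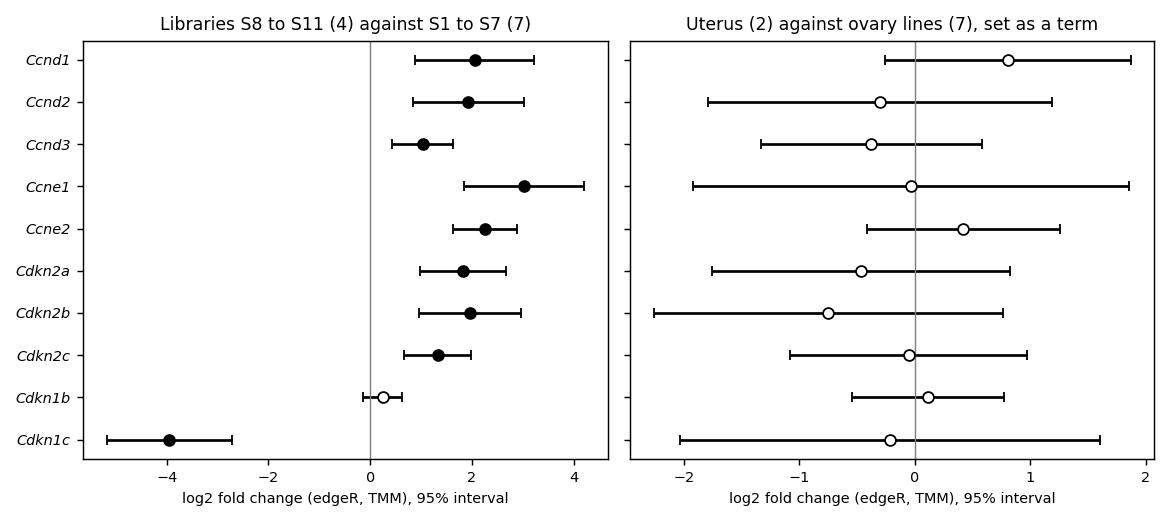
Log2 fold change of each member (edgeR with TMM) with its 95% interval, for S8 to S11 (4 libraries) against S1 to S7 (7 libraries) on the left and for the 2 uterus lines against the 7 ovary lines with the library set as a term on the right. Filled points have an adjusted p under 0.05: 9 of 10 on the left, from -3.95 for Cdkn1c to 3.03 for Ccne1, against 58.5% of all genes (3 of 10 against 15.0% with mouse as a block, not drawn), and none on the right.

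The titles of the lines imply a comparison of uterus with ovary. No member differed between the 2 uterus and 7 ovary lines when the library set was a term in the fit (edgeR's quasi-likelihood test), and the called share was 0.0% of 17446 genes. At an unadjusted p under 0.05 there were 847 genes, and DESeq2 called 117 (0.671%). Every member had an adjusted p of 1.0 by edgeR. The intervals were wide: Ccnd1 was 0.81 on the log2 scale (95% interval -0.25 to 1.87), Ccne1 -0.04 (-1.92 to 1.85), Cdkn2b -0.75 (-2.26 to 0.77), and Cdkn1c -0.22 (-2.03 to 1.60). These intervals include differences beyond a log2 of 1 in at least 1 direction, so such differences are not excluded. With 1 line left out in turn, Ccnd1 was between 0.04 and 1.46, Cdkn2a between -1.04 and -0.04, and Cdkn2b between -1.502 and -0.24. The interval of Cdkn1b was the narrowest, from -0.55 to 0.77 around 0.11. The splenic and the peritoneal tumor line have no replicate and were not tested.

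Pairs of lines from the same mouse share a germline, and 4 mice gave such pairs. Differences are log2 ratios of TMM-normalized CPM, each between single libraries. For F364, LOV and ROV are both in S1 to S7, and no member differed by more than 1, against 14.5% of all genes. The largest difference was Cdkn2b, higher by 0.97 in LOV (14.6 against 7.74 CPM). For F326, also within S1 to S7, the splenic tumor line had more of both INK4 genes of the chromosome 4 locus than the ROV line. Cdkn2a was higher by 2.06 (88.03 against 21.8 CPM) and Cdkn2b by 1.81 (23.5 against 6.88 CPM). Ccnd1 was lower in the splenic tumor line, at -1.35 (22.0 against 58.1 CPM), as was Ccne2 at -1.15 (2.53 against 5.94 CPM). The F326 pair thus had 4 members beyond a difference of 1, against 31.6% of all genes, and the other members lay between -0.72 for Cdkn1b and 0.94 for Ccne1.

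The other pairs span the library sets. For F318, LOV in S8 to S11 exceeded ROV in S1 to S7 by 1.87 for Ccne1, 1.65 for Cdkn2b, and 1.44 for Cdkn2a, and Cdkn1c was at -3.38. The D cyclins of the F318 pair were all higher in LOV: Ccnd1 by 1.45, Ccnd2 by 1.33, and Ccnd3 by 0.77. For F319, uterus in S8 to S11 exceeded ROV in S1 to S7 by 3.28 for Ccne1 and 2.62 for Ccne2, and Cdkn1c was at -4.13. In the F319 pair the D cyclins split: Ccnd1 was at 1.03, whereas Ccnd2 was at -0.55 (245 against 292 CPM) and Ccnd3 at -0.28 after TMM normalization, with nearly equal CPM. The F318 pair had 7 and the F319 pair 6 members beyond a difference of 1, against 42.7% and 51.1% of all genes. In the F319 pair, tissue and library set cannot be told apart, whereas the F318 pair joins the ovaries of 1 mouse.

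**Figure D4:**
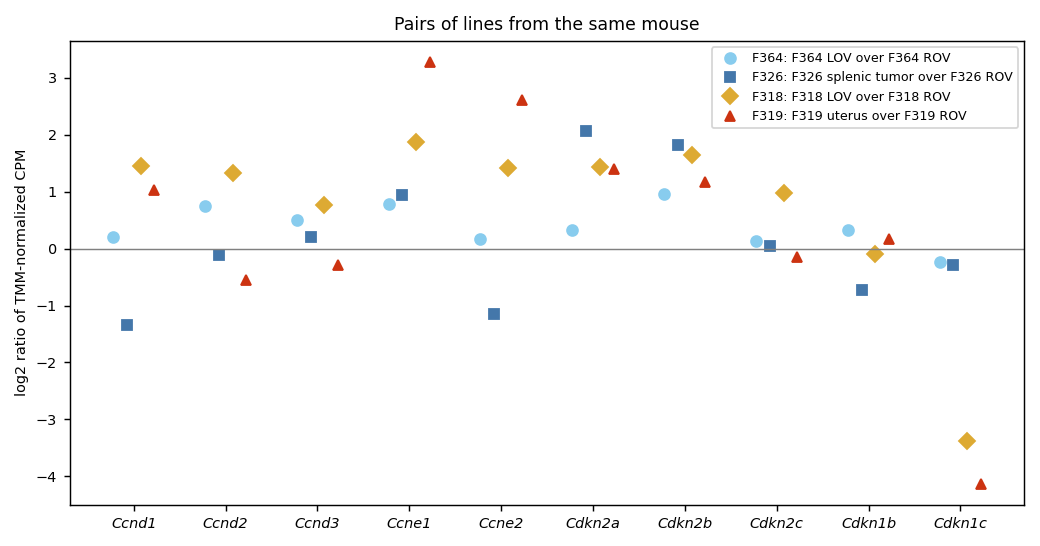
Log2 ratio of TMM-normalized CPM between lines of the same mouse for each member, with 1 symbol per mouse. The F364 and F326 pairs lie within S1 to S7, and the F318 and F319 pairs span the sets; Cdkn1c is at -0.24 and -0.28 in the first pairs and at -3.38 and -4.13 in the others.

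The other genes of the pathway were read from lists in the comparison of S8 to S11 with S1 to S7. The partners of the cyclins were higher: Cdk2 by 1.76, Cdk4 by 1.44, and Cdk6 by 1.70 on the log2 scale, 3 of 3 (edgeR adjusted p = 0.000355, 0.000288, and 0.00424). Of the retinoblastoma family, Rbl1 (p107) was higher by 2.31, Rbl2 (p130, typical of resting cells) was at -1.60, and Rb1 was at -0.60 and not called (edgeR adjusted p = 0.00023, 0.000844, and 0.127). Of 10 E2F and DP factors, 5 were higher (E2f1, E2f5, E2f7, E2f8, and Tfdp1), 3 were lower (E2f4, E2f6, and Tfdp2), and 2 were not called. E2f1, an activator, was higher by 1.83, and E2f4, which acts with p130 in repression, was at -0.73. All 16 S phase entry genes tested were higher, from 1.12 for Rrm1 to 3.41 for Rrm2, both subunits of ribonucleotide reductase. Their summed level was 170 to 748 CPM in S1 to S7 and 2115 to 2419 CPM in S8 to S11, and the lowest sum was in F361. The 58.5% of all genes called in this comparison (28.6% higher, 29.9% lower) is the background for these counts.

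Of the remaining CDK regulators, Cdkn1a, the p53 target p21Cip1, was at -2.52 (SE 0.91, edgeR adjusted p = 0.0312). The sets overlapped for Cdkn1a, at 16.3 to 664 CPM in S1 to S7 and 31.6 to 87.7 CPM in S8 to S11. Cdc25a, a phosphatase that activates CDK2, was higher by 1.07 (edgeR adjusted p = 0.00814), and Cdkn2d, the INK4 inhibitor p19Ink4d, was at -0.56 (adjusted p = 0.133). Cdkn2d, unlike the 3 INK4 members, was not called, and the difference from them was not tested. Of 6 genes for turnover of cyclins and their inhibitors, Skp2, the ubiquitin ligase receptor for p27, was higher by 2.61 and its cofactor Cks1b by 1.84, and 4 were not called, among them Fbxw7, the receptor for cyclin E, at -0.24. The p27 gene Cdkn1b itself differed by 0.24, as given above. Of 9 Polycomb genes, which encode repressors known to silence the Cdkn2a locus, 5 were higher, 2 lower, and 2 not called. Ezh2, the methyltransferase, was higher by 1.80 and Suz12 by 1.48, Cbx7 was at -3.01 and Jarid2 at -1.10, and Bmi1 was at 0.40 and not called (edgeR adjusted p = 0.0578).

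**Figure D5:**
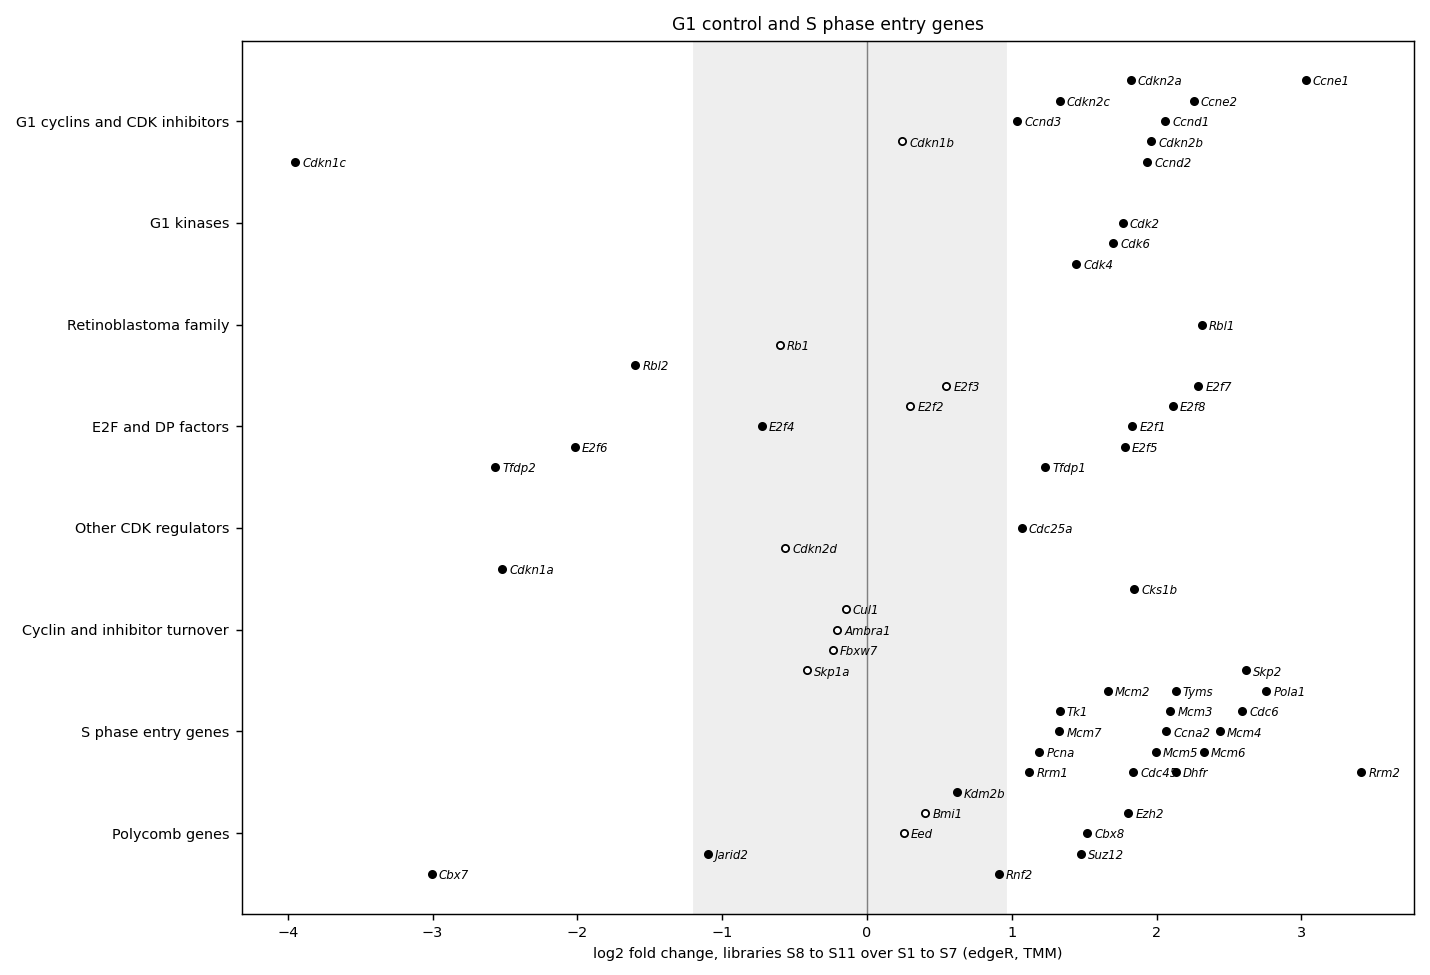
Log2 fold change of S8 to S11 over S1 to S7 (edgeR with TMM) for the members and 7 lists of related genes, with 1 point per gene tested, filled where the adjusted p is under 0.05. The grey band spans the middle quartiles of all 15954 genes tested, -1.19 to 0.96; all 16 S phase entry genes lie to the right of it and Cdkn1c and Cbx7 lie furthest to the left.

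Genes beside Ccne1 and Cdkn2a were read to see whether the neighbors moved as well. Of the 5 protein-coding genes annotated on each side of Ccne1, 7 were tested. Dpy19l3 (1.21), Tshz3 (2.10), and Pop4 (1.14) were higher, 1600014C10Rik (-0.80) was lower, and Zfp507 (0.05), Uri1 (-0.47), and Plekhf1 (0.55) were not called by edgeR. Among all genes tested, 28.6% were higher and 29.9% lower. The neighbors next to Ccne1, whose own log2 fold change was 3.03, are Uri1 on one side and 1600014C10Rik on the other. Beside Cdkn2a, 2 of 10 neighbors were tested: Cdkn2b and Mtap, a methionine salvage enzyme, which was at 25.6 to 68.0 CPM in S1 to S7 and 161 to 245 CPM in S8 to S11. Mtap was higher by 1.83 (SE 0.23, edgeR adjusted p = 9.9e-05), close in size to Cdkn2a (1.82) and Cdkn2b (1.96). Both neighbors of Cdkn2a that were tested were higher, against 28.6% of all genes. Cdkn2b is itself a member, so Mtap was the only other gene tested there.

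Some member genes overlap others on the opposite strand. Ccnd1 overlaps LTO1, which the count table lists under its older symbol Oraov1 (8.05 to 20.1 CPM over the lines). Ccnd2 overlaps Gm43126, which was not analysed here. Ccnd3 overlaps Bysl (43.6 to 85.9 CPM over the lines), and Ccne2 overlaps Ints8, which was at 11.2 to 41.1 CPM in S1 to S7 and 64.7 to 112 CPM in S8 to S11. Ints8 was higher in S8 to S11 by 1.75 (edgeR adjusted p = 0.000347), and its part in the difference of Ccne2 was not tested. Ccnd2 overlaps the antisense gene 9330179D12Rik and Cdkn1c overlaps Gm44732, which reached 12 and 2 counts in any library. The study's methods name a directional library kit. The strand setting of the counting is not given in the sources used here, so reads from such partners may not be told apart. Ccne1, Cdkn2a, Cdkn2b, Cdkn2c, and Cdkn1b overlap no other annotated gene.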

How the data were processed

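RNA sequencing was performed on 11 OvTrpMyc lines, 1 poly(A)-selected library each. Per the labels and the study's methods, the authors mapped reads to GRCm38 (mm10) by RNA STAR, then discarded PCR duplicates by SAMtools RmDup and assigned the rest to genes by featureCounts. The deposited values are raw counts per gene, not normalized. Duplicate removal can lower the counts of abundant genes in short transcripts. Totals were 13580525 to 27044598 counts per library, and 3 counts, taken as the limit of detection, equal 0.111 to 0.221 CPM. No libraries had identical values.

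Genes were placed with GENCODE M21. CPM was computed on library totals, with Wilson intervals at 95% confidence. Differences were tested with edgeR 4.0.16 (R 4.3.3; TMM, filterByExpr, quasi-likelihood test, Benjamini-Hochberg adjusted p under 0.05 over all genes). DESeq2 1.42.0 was an alternative. Log2 levels per line are log2 TMM-normalized CPM with a prior count of 2. Libraries S8 to S11 were compared with S1 to S7 over 11 lines, and uterus with ovary over 9 lines with the library set as a term. The edgeR fit was tested on simulated data with 200 genes changed by a log2 of 2. For the sets, 100% were recovered with 8 false calls among 21955 genes. For uterus against ovary, 76% were recovered with 7 false calls among 21480 genes. The simulated lines were independent, with the same dispersion for all genes, and the changed genes were not low in counts. The recovered shares need not hold for the real lines. The titles of the samples gave the groups, and their descriptions gave the library numbers. Replicates are separate lines. The list of members, the other gene lists, and the set boundary were chosen with earlier results of these data known, and the muscle fiber list was first written after the counts were seen. All 10 members were named, with called or extreme genes of the lists, the 5 neighbors on each side of Ccne1 and Cdkn2a, and the 3 genes most like each of them. Alternatives covered the normalization, the filter, the lines, the covariates, and gene length. Mouse as a block was added after seeing the data. Lines pair by the mouse in their titles, and the correlation over 15954 genes of their deviations from the set means was 0.229 for F318, -0.0539 for F319, -0.51 for F326, and 0.249 for F364. Mutant allele reads and protein levels were not analysed here.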

Additional observations from a re-analysis of the deposited data

Results flagged for a closer look

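Among the 7 ovary lines, the highest and lowest line of each of the 10 members were checked for a gap to the next line above Dixon's 95% critical value of 0.568 of the range, and chance flags about 1 in 20 groups. Ccnd1 in F318 LOV was at 314 CPM, and the gap to the next line, F339 ROV at 150 CPM, was 0.639 of the range. Cdkn1b in F339 ROV was at 98.7 CPM, with a gap of 0.578 to F326 ROV at 68.2 CPM. Both flagged lines are in S8 to S11, while the other 5 ovary lines are in S1 to S7. The check used CPM on library totals. After TMM normalization Ccnd1 was at 262 CPM in F318 LOV and 123 CPM in F339 ROV, with the lowest ovary line at 64.7 CPM. Cdkn1b was then at 80.9 CPM in F339 ROV and 76.0 CPM in F326 ROV, with the lowest ovary line at 52.2 CPM. On that scale F339 ROV did not stand apart for Cdkn1b.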

How the results depend on the processing

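For S8 to S11 against S1 to S7, 182 results on single members kept their direction and side of the threshold under the alternatives and 8 did not. These were Ccnd1 with tissue as a term (1.24, adjusted p = 0.0523), Cdkn1b on library totals without TMM (0.60, adjusted p = 0.0136), and 6 members with mouse as a replicate block (Ccnd1, Ccnd2, Ccnd3, Cdkn2a, Cdkn2b, and Cdkn2c), with which 3 members and 2777 genes were called. The block leaves 3 residual degrees of freedom, and why these 8 results changed was not tested. With 1 line left out in turn, 9 members and 8526 to 9311 genes were called; the whole data called 9337, the ovary lines alone 6757, and tissue as a term 6397. For uterus against ovary, no member passed, so the sign of a value there carries no call. The count of 0 genes was 1 with all 11 lines in the fit, 117 with DESeq2, 6 without a filter, and 0 to 2 with a line left out. Without the set term, signs turned for Ccnd2 (0.72), Ccnd3 (0.32), Ccne1 (1.33), Cdkn2a (0.69), Cdkn2b (0.46), and Cdkn2c (0.70), and Cdkn1c moved to -3.33, Ccnd1 to 1.57, Ccne2 to 1.502, and Cdkn1b to 0.22. With a line left out, values ranged from -1.63 to 0.39 for Ccnd2, -1.001 to 0.0753 for Ccnd3, -0.49 to 0.55 for Ccne1, -1.02 to 0.54 for Cdkn2c, -0.12 to 0.40 for Cdkn1b, and -1.66 to 0.54 for Cdkn1c. With mouse as a block, which leaves 1 residual degree of freedom here, 0 genes were called, and Ccnd1 (-0.40) and Ccne1 (1.45) turned sign. Depth limits Cdkn1c in S8 to S11 and Ccne1 in S1 to S7, and the uterus group holds 2 lines.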
